A study of Mus musculus with 2 samples.

Results

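The 7 genes described here encode the mouse receptors for the constant (Fc) part of immunoglobulin G (IgG), the signalling chain they share, the kinase downstream of it and the neonatal Fc receptor. They are Fcgr1, Fcgr3, Fcgr4, Fcgr2b, Fcer1g, Syk and Fcgrt, taken by symbol from the 31053 genes of 2 single-cell count tables of mouse brain. All 7 were found, and each had at least 1 unique molecular identifier (UMI, a tag that marks 1 captured RNA molecule) among the kept cells of each sample. The genes were picked by symbol, with earlier results of these data known.

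The study profiled cells of wild type (WT) and STING-KO mice, which lack the adaptor STING that relays the sensing of DNA in the cytosol. Sorted brain held FACS-sorted (flow-sorted) cells from male mice of 3 and 12 months, and the sort gate was not given in the sources used here. Total brain held cells from both sexes, taken without a sort, with ages of 2 and 24 months in the title and an older age that no mouse reaches in another label. Per the labels, 2 mice were grouped per genotype and age, and both genotypes and both ages lie in each sample. Cells carry 1 of 4 barcode suffixes in each table, but what a suffix stands for was not found in the labels, so WT and STING-KO cells, or young and old cells, could not be compared. With 1 pooled sample per group no test between samples was possible. Sort, sex, age, library and the software version in the file headers all differ between the samples. They cannot be told apart in any difference between the samples. The intervals below, exact and at 95%, cover counting error only.

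IgG bound to a target is read by white blood cells through Fc gamma receptors. The activating receptors, FcγRI (Fcgr1), FcγRIII (Fcgr3) and FcγRIV (Fcgr4), have no signalling motif of their own and pair with the common gamma chain (Fcer1g), whose tyrosine-based activation motif (ITAM) is phosphorylated by Src family kinases and then binds the kinase Syk. FcγRIIb (Fcgr2b) carries an inhibitory motif in its own tail and recruits the phosphatase SHIP1 (Inpp5d), which damps that signal. The neonatal receptor FcRn (Fcgrt) works in another way: it pairs with beta-2 microglobulin (B2m), binds IgG in acidic endosomes, and returns it to the cell surface or carries it across the cell. In the brain, microglia and the macrophages of the meninges, perivascular spaces and choroid plexus are known to carry Fc gamma receptors, and FcRn is known from the vessel wall.

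The sorted sample held 13499 barcodes with 36822467 UMIs and the total sample 14674 barcodes with 48226525 UMIs. Filters left 10076 cells with a median of 2294 UMIs in sorted brain and 9367 cells with a median of 1692 UMIs in total brain. Of the kept cells, 1.22% in sorted and 0.288% in total brain had a barcode sequence that also occurred under another suffix of that sample. No sequence was shared between the samples, and whether their libraries were made alike was not tested. Clusters were made without the 7 genes and the genes of their pathway, and were called "X-like" from marker lists. The microglia-like class had 4417 cells in sorted brain and 575 in total brain, and its 10 markers were all detected and summed to 35653 and 23184 CPM (counts scaled to a common total: the UMIs of a gene per 1000000 UMIs of the class). Sorted brain also held 298 border macrophage-like, 197 monocyte-like, 121 neutrophil-like, 91 dendritic cell-like, 618 B cell-like, 569 T cell-like, 81 NK cell-like and 2505 choroid plexus epithelial-like cells. Total brain was mostly neuron-like, with 5376 such cells, and had 349 choroid plexus epithelial-like cells. Its border macrophage-like and blood cell classes had 27 or fewer cells each, except T cell-like, with 28.

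The starts of 5 of the genes are shown because 4 of them (Fcgr2b, Fcgr4, Fcgr3 and Fcer1g) lie side by side within 275749 bases of chromosome 1 and the order of the cell classes by level differed between them. Each line gives 120 bases, 70 before and 50 from the annotated start, read 5′ to 3′ on the strand of the gene, from RefSeq on build GRCm38.p6. Capitals mark TTCCTC, the other strand of GAGGAA, the core letters of sites bound by PU.1, a transcription factor of macrophages.
Fcgr1: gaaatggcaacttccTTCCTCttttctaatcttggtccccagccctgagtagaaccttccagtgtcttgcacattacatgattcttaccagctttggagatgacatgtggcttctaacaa
Fcgr3: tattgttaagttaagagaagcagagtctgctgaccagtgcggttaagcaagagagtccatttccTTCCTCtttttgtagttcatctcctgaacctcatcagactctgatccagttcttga
Fcgr4: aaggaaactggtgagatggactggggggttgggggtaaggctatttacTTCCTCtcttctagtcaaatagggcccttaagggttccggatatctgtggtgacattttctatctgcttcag
Fcgr2b: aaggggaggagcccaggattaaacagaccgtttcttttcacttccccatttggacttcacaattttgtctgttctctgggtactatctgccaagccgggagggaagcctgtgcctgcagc
Fcer1g: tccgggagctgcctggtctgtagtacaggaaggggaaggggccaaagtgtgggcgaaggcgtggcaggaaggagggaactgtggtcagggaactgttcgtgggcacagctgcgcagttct

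These windows lie at chr3:96293920-96294039 on the minus strand for Fcgr1, chr1:171059354-171059473 on the minus strand for Fcgr3 (1 of its 2 annotated starts), chr1:171018856-171018975 on the plus strand for Fcgr4, chr1:170976022-170976141 on the minus strand for Fcgr2b and chr1:171234300-171234419 on the minus strand for Fcer1g. The 3 activating receptors each held the 6 letters upstream of the start, with the first letter 55 bases before it in Fcgr1, 6 in Fcgr3 and 22 in Fcgr4. These letters were not in the windows shown for Fcgr2b and Fcer1g. Of the members not shown, Syk held GAGGAA at 1 of its 2 annotated starts, with the first letter 9 bases before it. Fcgrt did not hold the letters on either strand, so they do not set the activating receptors apart from all other members. GAGGAA was found on either strand in 4280 of the 32851 windows of this size in the table, so such a match is a description of the letters and says nothing of binding.

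The gene bodies, on GRCm38, are at chr3:96282909-96293969 for Fcgr1 (minus strand), chr1:170958617-170976547 for Fcgr2b (minus), chr1:171018920-171029761 for Fcgr4 (plus), chr1:171051174-171064935 for Fcgr3 (minus), chr1:171229572-171234365 for Fcer1g (minus), chr13:52583173-52648792 for Syk (plus) and chr7:45092990-45103851 for Fcgrt (minus). Fcgr2b and Fcgr3 have closely similar coding sequence for their outer part, and how the authors assigned reads that match both is unknown here. Fcgr2b and Fcgrt each overlap a counted gene on the other strand.

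Fcgr3 was the most abundant Fc gamma receptor RNA in microglia-like cells, and Fcgr4 the scarcest. In sorted brain the level of Fcgr1 was 511 CPM (interval 497 to 526), that of Fcgr3 1906 CPM (1878 to 1934), that of Fcgr4 21.5 CPM (18.6 to 24.7) and that of Fcgr2b 333 CPM (322 to 345). Counts of 3′ ends do not grow with transcript length, but capture differs between genes, so levels of different genes compare only roughly. Read as shares of all 25904 Fc gamma receptor UMIs of sorted microglia-like cells, Fcgr3 made up 68.8%, Fcgr1 18.4%, Fcgr2b 12.0% and Fcgr4 0.776%. Among the 5272 receptor UMIs of total brain microglia-like cells the shares were 64.0% for Fcgr3, 22.9% for Fcgr1, 11.7% for Fcgr2b and 1.42% for Fcgr4, the same order in both samples.

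Other myeloid classes had another make-up. In sorted border macrophage-like cells Fcgr2b, the inhibitory receptor, made up 25.7% of the receptor UMIs and Fcgr4 3.73%. Of the 630 receptor UMIs of monocyte-like cells 46.0% were Fcgr3, 25.2% Fcgr4, 20.8% Fcgr2b and 7.94% Fcgr1. In neutrophil-like cells Fcgr3 reached 78.4% and Fcgr4 12.7%, and in dendritic cell-like cells Fcgr2b led with 45.7%. B cell-like cells, whose known Fc gamma receptor is FcγRIIb, had 67.0% Fcgr2b among 109 receptor UMIs and 0 UMIs of Fcgr4, which allows a level of up to 3.00 CPM.

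**Figure D1:**
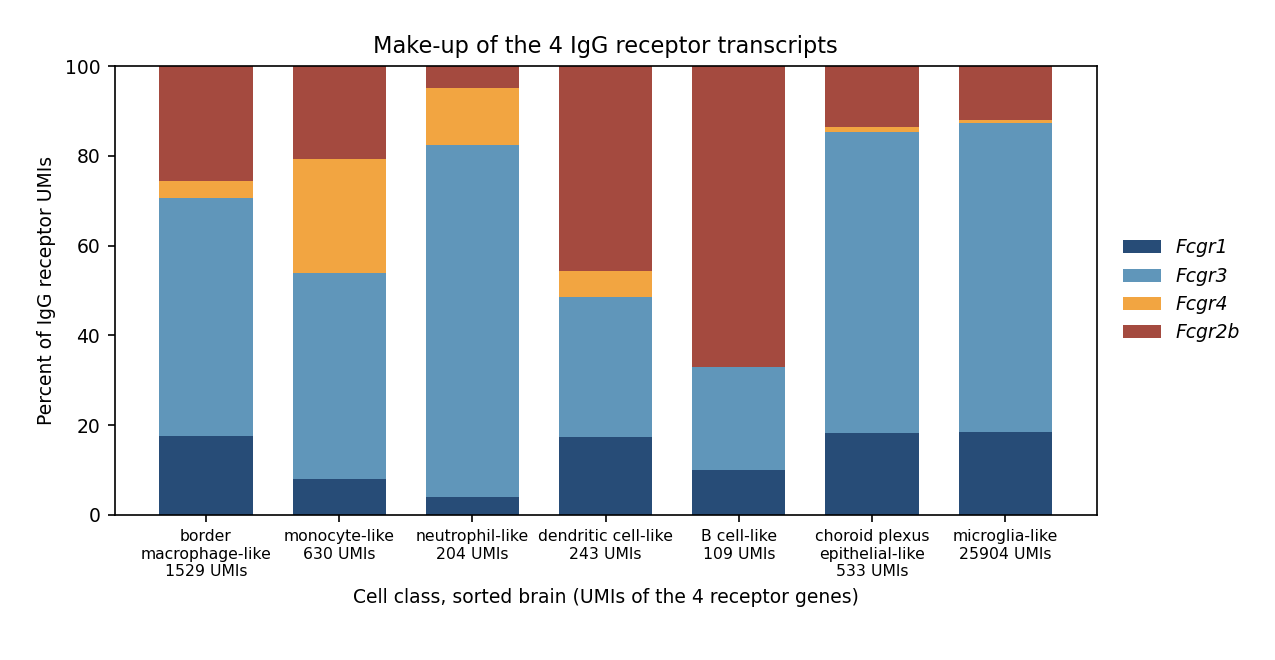
Make-up of the Fc gamma receptor UMIs in sorted brain, where each bar is 1 cell class. Segments are the percent of the UMIs of Fcgr1, Fcgr3, Fcgr4 and Fcgr2b combined. Fcgr3 takes 68.8% in microglia-like cells, Fcgr4 takes 25.2% in monocyte-like cells, and Fcgr2b takes 67.0% in B cell-like cells.

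Receptor RNA was also counted in cells that should lack it. In sorted choroid plexus epithelial-like cells the 533 receptor UMIs were 67.2% Fcgr3, 18.2% Fcgr1, 13.5% Fcgr2b and 1.13% Fcgr4, close to the make-up of the microglia-like cells of the same sample. Neuron-like cells of total brain had 62.4% Fcgr3, 17.7% Fcgr1, 19.5% Fcgr2b and 0.376% Fcgr4 among 266 UMIs. The levels there, such as 27.1 CPM of Fcgr3 in sorted choroid plexus epithelial-like cells and 4.37 CPM of Fcgr1 in total brain neuron-like cells, are given as the levels in classes that should lack these receptors, and the part of free RNA in them was not tested.

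**Figure D2:**
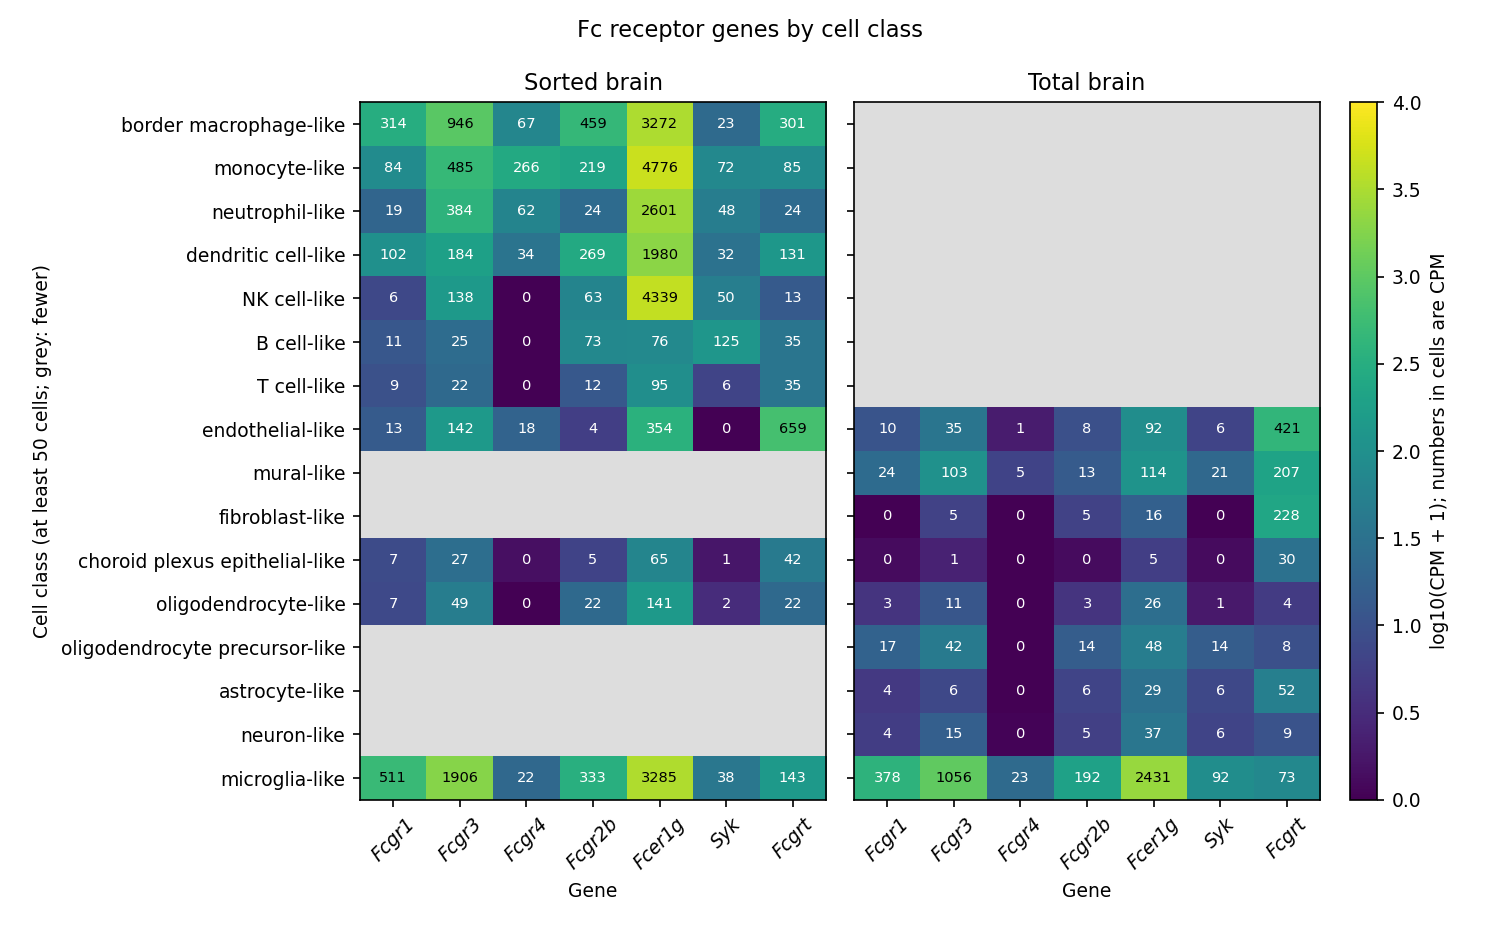
Heatmap of the level of each of the 7 genes in each cell class with at least 50 cells, with 1 panel per sample. Colour gives the level on a log scale and the printed numbers are CPM, without intervals. Fcgr1 and Fcgr3 are highest in microglia-like cells, Fcgr4 and Fcer1g in monocyte-like cells, Fcgr2b in border macrophage-like cells, Syk in B cell-like cells and Fcgrt in endothelial-like cells of sorted brain.

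Across the classes of sorted brain with at least 50 cells, Fcgr1 and Fcgr3 were highest in microglia-like cells and the other members outside them. Among total brain classes of that size, only Fcgrt was highest outside microglia-like cells. The share of all genes highest outside microglia-like cells was not counted. Smaller classes were not ranked. Among these, 27 border macrophage-like cells of total brain had 570 CPM of Fcgr2b, against 192 CPM in its microglia-like cells. Fcgr1, the high-affinity receptor, was ordered microglia-like (511 CPM), border macrophage-like (314), dendritic cell-like (102), monocyte-like (83.7) and neutrophil-like cells (19.2 CPM). Fcgr3 was ordered microglia-like (1906 CPM), border macrophage-like (946), monocyte-like (486), neutrophil-like (384) and dendritic cell-like cells (184 CPM). The intervals of dendritic cell-like and monocyte-like cells overlap for Fcgr1, and those of monocyte-like and neutrophil-like cells for Fcgr3. NK cells are known to carry FcγRIII as their Fc gamma receptor, and NK cell-like cells held 138 CPM of Fcgr3, beside 62.7 CPM of Fcgr2b. Endothelial-like cells of sorted brain held as much Fcgr3, 141.6 CPM (96.85 to 199.9), against an interval of 86.44 to 208.8 CPM in NK cell-like cells. The part of free RNA in these levels was not tested.

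Fcgr4 and Fcgr2b, neighbours on the chromosome, had other orders. Fcgr4 stood at 266 CPM (226 to 311) in monocyte-like cells, then at 66.6 CPM (50.4 to 86.2) in border macrophage-like and 62.4 CPM (40.8 to 91.5) in neutrophil-like cells, which overlap. Dendritic cell-like cells had 33.9 CPM and microglia-like cells 21.5 CPM, also with overlapping intervals. Fcgr2b was highest in border macrophage-like cells, at 459 CPM (415 to 507). Microglia-like cells (333 CPM), dendritic cell-like cells (269), monocyte-like cells (219) and B cell-like cells (73.1 CPM) followed, and in this order the neighbours from microglia-like to monocyte-like cells overlap, as do B cell-like and NK cell-like cells.

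Fcer1g followed another order from the receptors it serves. Its level was 4776 CPM (4602 to 4955) in monocyte-like, 4339 CPM (4021 to 4674) in NK cell-like, 3285 CPM (3248 to 3321) in microglia-like and 3272 CPM (3152 to 3396) in border macrophage-like cells of sorted brain. The intervals of the first pair overlap, as do those of microglia-like and border macrophage-like cells. Neutrophil-like cells followed with 2601 CPM and dendritic cell-like cells with 1980 CPM. Cluster i5 of sorted brain (103 cells) was left unnamed because markers of NK cells and of T cells were both raised. It had 2615 CPM (2416 to 2826) of Fcer1g and 57.3 CPM of Fcgr3, and is not part of the NK cell-like class. The gamma chain is known to serve other receptors too, among them NKp46 (Ncr1) of NK cells, whose level was 1285 CPM in NK cell-like cells. B cell-like cells had 76.1 CPM and T cell-like cells 94.7 CPM of Fcer1g, beside 65.1 CPM in choroid plexus epithelial-like cells, and how much of these low levels is free RNA was not tested.

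Syk was low in T cell-like cells, which use the related kinase ZAP-70, and highest in B cell-like cells, where it acts behind the antigen receptor. In sorted brain it stood at 125 CPM (104 to 149) in B cell-like, 72.0 CPM (52.1 to 97.0) in monocyte-like, and 50.2 CPM in NK cell-like cells. Neutrophil-like cells stood at 48.0 CPM. Microglia-like cells had 37.7 CPM and dendritic cell-like cells 31.5 CPM, with border macrophage-like cells at 23.4 CPM and T cell-like cells at 5.52 CPM. In this order each neighbour from monocyte-like to border macrophage-like cells overlaps with the next. The 4 suffixes of B cell-like cells had 147, 119, 90.6 and 127 CPM. All 4 lay above the levels of sorted microglia-like cells in every suffix, which were 33.0 to 41.7 CPM.

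Fcgrt was found in vessel and border classes as well as in myeloid ones. Among classes with at least 50 cells it was highest in endothelial-like cells, with 659 CPM (558 to 774) in sorted brain and 421 CPM (405 to 438) in total brain, where 27 border macrophage-like cells had 478 CPM (370 to 606). In sorted brain border macrophage-like cells followed with 301 CPM (266 to 340), then microglia-like cells with 143 CPM, dendritic cell-like cells with 131 CPM and monocyte-like cells with 85.4 CPM, where the neighbours among the last 3 overlap. In total brain fibroblast-like cells had 228 CPM (166 to 307) and mural-like cells 207 CPM (163 to 258), with overlapping intervals, ahead of microglia-like cells with 73.2 CPM and astrocyte-like cells with 52.3 CPM. The 4 suffixes of total brain endothelial-like cells had 377, 316, 421 and 464 CPM, all above every microglia-like suffix of either sample. Choroid plexus epithelial-like cells had 41.7 CPM in sorted brain and 29.98 CPM in total brain. There, in contrast to the Fc gamma receptors, the fold between the samples was small, at 1.39 (1.13 to 1.73).

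Over the 20 combinations of class and sample with at least 50 cells, the log2 levels of Fcgr3 and Fcer1g correlated with r = 0.933 and those of Fcgr1 and Fcgr3 with r = 0.923, while Fcgrt reached −0.03 to 0.476 with the other members. Classes of 1 sample share a library and its free RNA, so these are descriptions. Among 9785 other genes, those most like Fcer1g were Tyrobp (r = 0.993), which encodes the ITAM adaptor DAP12, Plek (0.928) and Clec4a2 (0.922). Most like Fcgr1 were Aif1 (0.976), Cd300c2 (0.955) and P2ry6 (0.948), and most like Fcgr3 were Cd300c2 (0.958), Aif1 (0.943) and the protease gene Ctss (0.940). For Fcgr4 they were Igsf6 (0.944), Pilra (0.939) and Cd300a (0.935), and for Fcgr2b H2-DMa (0.950), Lat2 (0.946) and BC035044 (0.943). Syk was most like Fermt3 (0.903), Nckap1l (0.891) and Plcg2 (0.885), the phospholipase that acts after Syk. Fcgrt, with Cracr2b (0.843), Smagp (0.821) and Oasl2 (0.803), had the least close neighbours of the 7.

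Between the samples, microglia-like cells of sorted brain had Fcgr1, Fcgr3, Fcgr2b, Fcer1g and Fcgrt at a higher level by less than 2-fold. Syk was lower there, while Fcgr4 had overlapping suffix ranges. The share of all genes with suffix ranges apart at any fold was not counted. A gene was called when its log2 ratio of CPM, with 1 CPM added to each level, was at least 1 in size. Of 12860 genes tested in this class 4.06% were called higher and 24.4% lower in sorted brain. Calls whose suffix ranges did not overlap between the samples took 2.67% (higher) and 17.4% (lower). Of the 7 members 0 were called higher and 1, Syk, lower with ranges apart, and their median log2 ratio was 0.43, against −0.20 for all genes tested. Scaling by the trimmed mean of M-values (TMM) moved the median of all genes by 0.32, to 0.13, and the calls to 10.1% higher and 16.6% lower. Under it 3 members were called, all higher (Fcgr3, Fcgr2b and Fcgrt), and Syk was not.

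Fcgr3 had 2045, 1821, 1873 and 1713 CPM in the 4 suffixes of sorted microglia-like cells and 962, 1105, 1080 and 1080 CPM in those of total brain. Every sorted suffix lay above every total brain suffix, and the pooled level was 1.81-fold higher (1.74 to 1.87). Fcgr1 had 533, 485, 528 and 505 CPM in sorted brain, against 298, 479, 376 and 388 CPM in total brain. Here the ranges were apart by little, 485 against 479 CPM, and the fold was 1.35 (1.27 to 1.44). Fcgr4 had 17.7, 21.8, 28.0 and 28.0 CPM in sorted brain and 22.2, 36.7, 20.7 and 19.6 CPM in total brain. These ranges overlapped, and the ratio of 0.916 had an interval from 0.6996 to 1.21, on 201 and 75 UMIs.

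The inhibitory receptor Fcgr2b was higher in sorted brain, as Fcgr1 and Fcgr3 were. It had 322, 342, 365 and 313 CPM in the suffixes of sorted microglia-like cells and 199, 220, 184 and 179 CPM in total brain, and was 1.73-fold higher (1.59 to 1.89) in sorted brain with ranges apart. Fcer1g had 3258, 3332, 3244 and 3263 CPM in sorted brain, against 3116, 2613, 2111 and 2086 CPM in total brain. The sorted suffixes were nearly level while those of total brain spread 1.49-fold, and the pooled fold was 1.35 (1.32 to 1.39). Fcgrt had 138, 156, 139 and 120 CPM in sorted brain and 66.5, 58.7, 74.7 and 86.0 CPM in total brain, which gave 1.96-fold (1.70 to 2.26), just under the call. Its partner B2m was 2.10-fold higher (2.04 to 2.15), with 4484 CPM in sorted and 2140 CPM in total brain microglia-like cells.

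Syk ran the other way. It had 41.7, 33.5, 41.1 and 33.0 CPM in the suffixes of sorted microglia-like cells and 52.1, 75.2, 116 and 110 CPM in total brain. No sorted suffix reached the lowest of total brain, and the pooled level, 37.7 against 92.0 CPM, was 2.44-fold lower (2.09 to 2.86) in sorted brain. Under TMM scaling the log2 ratio was −0.90, which is under the call. The difference also moved with which cluster the cells came from. Of the 575 microglia-like cells of total brain 439 were in cluster 34, which had a median of 6533 UMIs per cell and held 2 sorted cells, and 111 were in cluster 7, led by P2ry12 and Crybb1, which held 1490 sorted cells. Cluster 7 had median depths of 1857 UMIs in sorted and 1675 UMIs in total brain. Within it Syk was at 36.6 CPM in sorted and 30.1 CPM in total brain, a ratio of 1.22 (0.570 to 3.1) on 105 and 7 UMIs. That log2 ratio of 0.27 lay below the median of 0.53 over all genes tested in the cluster.

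**Figure D3:**
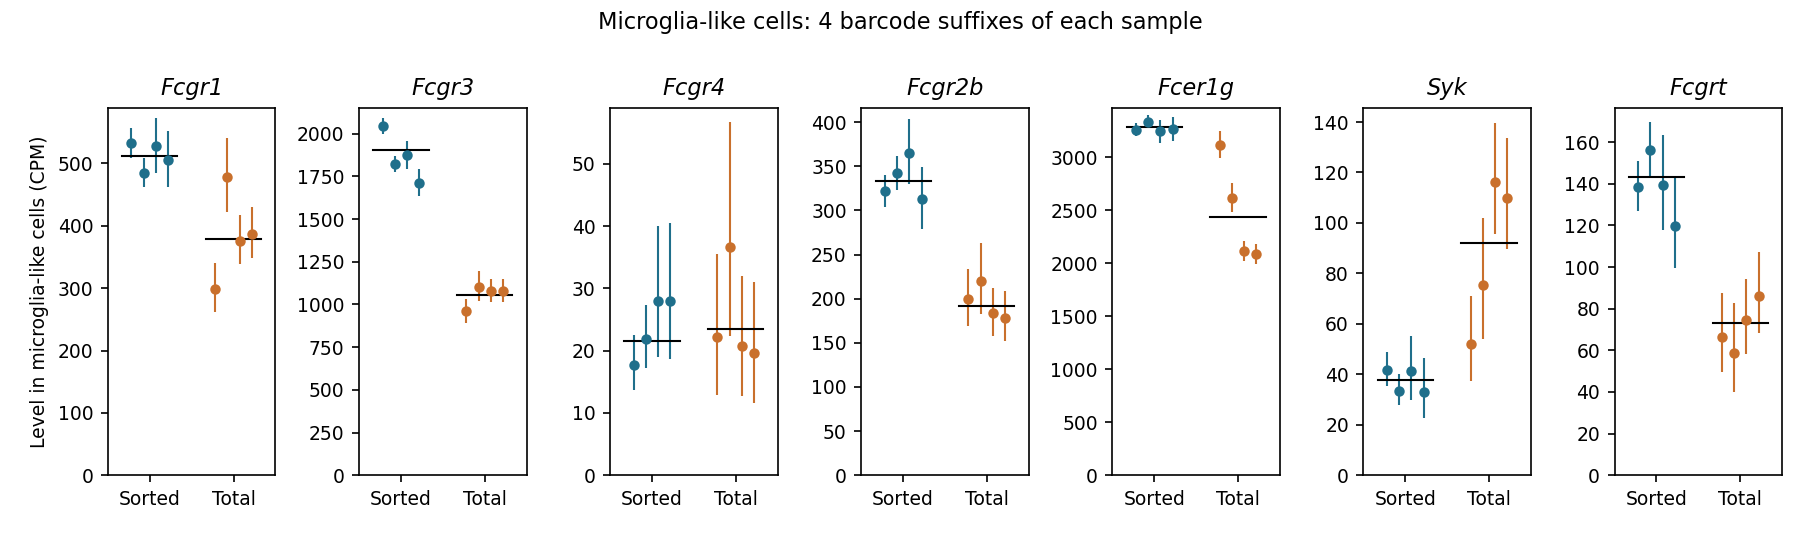
Levels (CPM) of the 7 genes in microglia-like cells by barcode suffix, with the 4 sorted brain suffixes left of the 4 total brain suffixes and bars for the exact 95% counting interval. The sorted suffixes of Fcgr3 lie between 1713 and 2045 CPM, above all those of total brain, the Syk suffixes of sorted brain lie between 33.0 and 41.7 CPM, below all those of total brain, and those of Fcgr4 overlap.

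The other members were also compared within cluster 7. Of 9860 genes tested there, 34.9% were at least 2-fold higher and 9.13% at least 2-fold lower in sorted brain, with a median log2 ratio of 0.53, and 4 of the 7 members were called, all higher. Fcgr1 had 516 CPM in sorted and 176 CPM in total brain, 2.93-fold (2.15 to 4.10), and Fcgr3 had 2048 and 953 CPM, 2.15-fold (1.88 to 2.47). For Fcgr2b the values were 337 CPM in sorted and 85.9 CPM in total brain, 3.93-fold (2.53 to 6.46). Fcgrt, with 158 CPM in sorted and 73.0 CPM in total brain, was 2.17-fold higher (1.34 to 3.75). Fcer1g, with 3554 CPM in sorted and 3807 CPM in total brain, had a ratio of 0.933 (0.871 to 1.00), and Fcgr4, with 19.2 CPM in sorted and 21.5 CPM in total brain, a ratio of 0.892. Relative to that median, Fcgr3 and Fcgrt were less than 2-fold higher. Markers of other cells also differed between the samples in microglia-like cells: the 9 choroid plexus markers summed to 8673 CPM in sorted brain (9 detected) and 502 CPM in total brain (7 detected), and the 10 neuron markers to 18.8 CPM (9 detected) and 540 CPM (10 detected). Their part in the results between samples was not tested.

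Because cells differed in depth, shares of cells with a UMI were taken after thinning each cell to 1000 UMIs, which kept 4171 of the 4417 cells in sorted and 551 of the 575 in total brain. At that depth 82.6% of microglia-like cells had Fcgr3 in sorted brain and 53.9% in total brain, 39.3% and 25.2% had Fcgr1, and 94.5% and 77.5% had Fcer1g. Fcgr2b was found in 27.7% of the sorted and 14.2% of the total brain cells, and Syk in 3.64% and 9.62%. Without thinning, Fcgr1 was found in 62.1% of sorted and 64.3% of total brain cells, at median depths of 2029 and 4471 UMIs. The thinned background was 4.92% for Fcer1g and 2.58% for Fcgr3 in sorted choroid plexus epithelial-like cells, and 3.08% and 1.47% in total brain neuron-like cells.

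Most microglia-like cells held RNA of a receptor and of the gamma chain together. Of the thinned cells 93.0% in sorted brain (3879 of 4171) and 69.0% in total brain (380 of 551) had at least 1 UMI of an Fc gamma receptor. Fcer1g was found in 94.6% of the sorted cells with a receptor UMI and in 92.5% of those without (intervals 93.9 to 95.3% and 88.8 to 95.2%), which overlap. In total brain it was found in 81.1% of the cells with a receptor UMI and in 69.6% of those without (76.7 to 84.9% and 62.1 to 76.4%). Those intervals are apart by little, rest on 1 random thinning, and count cells of 1 pooled sample, which are not replicates.

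Within sorted brain, monocyte-like cells differed from microglia-like cells most in Fcgr4, the receptor for the IgG2 subclasses in mouse. Of 11978 genes tested 12.2% were called higher and 33.8% lower in monocyte-like cells, and 8.96% higher and 26.9% lower with suffix ranges apart. Of the members 1 was called higher and 2 lower. The higher one was Fcgr4, with 223, 193 and 381 CPM in the 3 monocyte-like suffixes with at least 50 cells and 266 CPM in all, against 21.5 CPM in microglia-like cells, 12.4-fold (9.99 to 15.3). Fcgr1 was 6.11-fold lower, at 83.7 CPM against 511 CPM, and Fcgr3 3.93-fold lower, at 486 CPM against 1906 CPM. Their suffix ranges were apart from those of microglia-like cells. Syk was 1.91-fold and Fcer1g 1.45-fold higher, both under the call.

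The monocyte-like class was made of a pair of clusters that differed more than 20-fold in Fcgr4. Cluster i12 (116 cells) was led by Ear2, Plac8, Fabp4, Itgal and Treml4, and cluster i8 (81 cells) by Lyz2, Plac8, S100a4, Chil3, Ms4a4c and Ccr2, so that Plac8 was among the leading genes of both. Ear2 and Treml4 are known from patrolling monocytes and Ccr2 from classical ones. Of 5259 genes tested 10.4% were at least 2-fold higher and 12.5% lower in i12. Among the members Fcgr4 had 604 CPM in i12 and 23.0 CPM in i8 (151 and 8 UMIs), 26.3-fold (12.98 to 61.9), while Fcgr1 was 2.55-fold lower in i12, at 44.02 CPM against 112 CPM. Fcgr2b was 2.65-fold lower (1.73 to 4.17), at 112 CPM in i12 and 296 CPM in i8. RNA for FcγRIV was thus higher in i12, and that for FcγRI and FcγRIIb higher in i8. Fcgrt was 2.16-fold higher in i12 on 31 and 20 UMIs, a call that is lost without suffix 1, where the log2 ratio was 0.87. Fcer1g was 1.43-fold higher, with 5795 CPM in i12 and 4044 CPM in i8.

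Border macrophage-like cells of sorted brain were compared with microglia-like cells in the same way, where 7.39% of 11970 genes were called higher and 23.2% lower, or 3.87% and 16.0% with suffix ranges apart. Of the members 2 were called higher and 1 lower. Fcgr4 had 77.4, 20.1, 54.2 and 101 CPM in the 4 suffixes of border macrophage-like cells, and 66.6 CPM in all, 3.09-fold that of microglia-like cells. The lowest suffix lay within the microglia-like range of 17.7 to 28.0 CPM, and with a stricter cell filter the log2 ratio was 0.33. Fcgrt had 365, 361, 211 and 255 CPM, all above the 120 to 156 CPM of the microglia-like suffixes, and was 2.10-fold higher, a call lost without suffix 1 (log2 ratio 0.92). Fcgr3 was 2.02-fold lower, 946 CPM against 1906 CPM, and this call lies at its edge: the log2 ratio was −0.97 without the erythroid marker genes and −0.41 with the stricter filter. The 7 erythroid markers summed to 28142 CPM in border macrophage-like (6 detected) and 911 CPM in microglia-like cells (7 detected). Fcgr1 was 1.63-fold lower, Fcgr2b 1.38-fold higher and Fcer1g level, with a ratio of 0.996.

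The border macrophage-like cells also came in 2 clusters. Cluster i6 (120 cells) was led by Pf4, Mrc1, Cd209f, F13a1 and Lyve1, and cluster i14 (178 cells) by the class II genes H2-Eb1 and H2-Ab1, with Cd74 and Cxcl13. Of the border macrophage markers, 8 were raised in i6 (100%) and 4 in i14 (50%). Cluster i14, the larger of the pair, thus took its name at the limit of the naming rule. At least 2-fold higher in i6 were 13.9% of 6340 genes, and 6.69% were lower. Fcgrt had 512 CPM in i6 and 172 CPM in i14, 2.98-fold (2.30 to 3.89), and Fcgr4 24.5 CPM in i6 and 92.4 CPM in i14, 3.77-fold lower (1.77 to 9.22) on 8 and 49 UMIs. Fcgr3 was 1.86-fold and Fcgr2b 1.90-fold higher in i6, each with an interval above 1. The cells led by Mrc1 and Lyve1 thus held more Fcgr3, Fcgr2b and Fcgrt, and those led by class II genes more Fcgr4. Total brain had 27 border macrophage-like cells, with 67 UMIs of Fcgrt, a level of 478 CPM that was 6.52-fold (4.89 to 8.59) that of its microglia-like cells, and Fcgr2b was 2.97-fold higher (2.32 to 3.75), where 13.3% of 11148 genes were called higher and 25.9% lower.

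**Figure D4:**
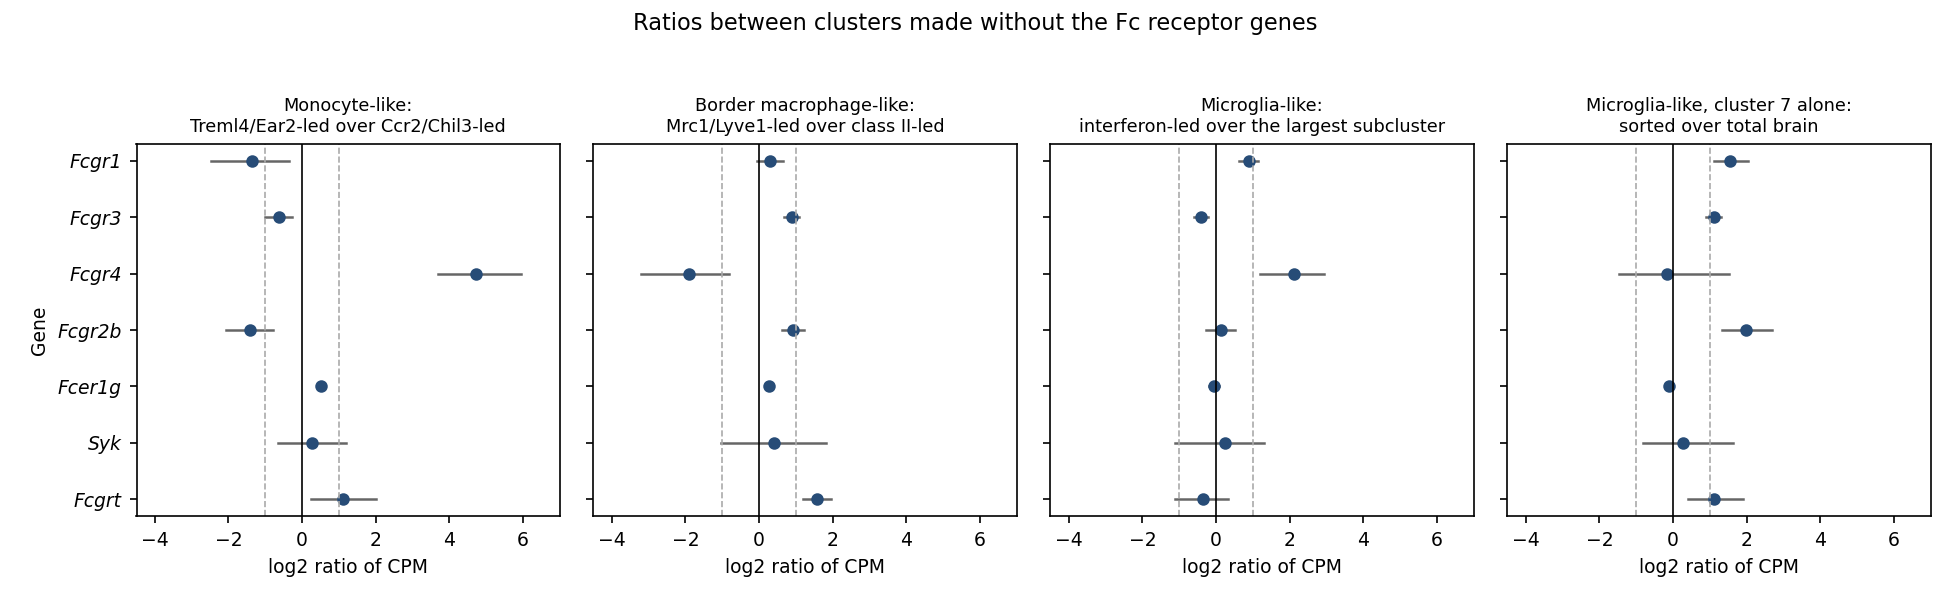
Ratio (log axis) of the 7 genes between clusters of 1 class, with exact 95% counting intervals, for the monocyte-like, border macrophage-like and microglia-like clusters named in the text. Fcgr4 is 26.3-fold higher in monocyte cluster i12 than in i8, 4.35-fold higher in the interferon-led microglia-like subcluster, and 3.77-fold lower in border macrophage cluster i6 than in i14.

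Neutrophil-like cells were compared with microglia-like cells too, and their 10 neutrophil markers alone summed to 416173 CPM. Of 11937 genes 8.26% were called higher and 59.6% lower in neutrophil-like cells, with a median log2 ratio of −1.28, and of the members 1 was called higher and 4 lower, a share of lower calls near that of all genes. Fcgr4, at 62.4 CPM against 21.5 CPM, was 2.90-fold higher. Fcgr1 was 26.6-fold, Fcgr2b 13.9-fold, Fcgrt 5.96-fold and Fcgr3 4.96-fold lower, and Fcer1g was 1.26-fold lower, which is no call.

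Microglia-like cells of sorted brain fell, apart from 1 cell, into subclusters 0 to 3. Subcluster 3 (75 cells) was led by the interferon-induced genes Ifit3, Isg15 and Irf7, and was set against subcluster 1 (2081 cells), where 8.64% of 10469 genes were at least 2-fold higher in subcluster 3 and 24.3% lower. Fcgr4 had 93.1 CPM in subcluster 3 and 21.4 CPM in subcluster 1, 4.35-fold (2.29 to 7.68) on 14 and 92 UMIs, and its log2 ratio stayed between 1.92 and 2.20 when 1 suffix was left out or under the other settings run for it. Fcgr1 was 1.85-fold higher (1.56 to 2.19), at 978 CPM against 528 CPM, and Fcgr3 1.32-fold lower. FcγRI and FcγRIV are both known to be induced by interferon gamma. Fcer1g, with 3267 CPM in subcluster 3 and 3391 CPM in subcluster 1, had a ratio of 0.963 (0.879 to 1.05).

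Subcluster 2 (195 cells) was led by Lgals3, Mmp12 and Lpl, had a median of 1364 UMIs, and lay mostly in suffixes 1 and 2, with 90 and 85 cells. Against subcluster 1, 2.90% of 10468 genes were at least 2-fold higher and 35.3% lower. Fcer1g was 1.37-fold higher there (1.30 to 1.44), with 4642 CPM in subcluster 2 and 3391 CPM in subcluster 1. Fcgr1 was 1.84-fold and Fcgr2b 1.83-fold lower, and Fcgr4 and Syk had 3 and 6 UMIs. Subcluster 0 (2065 cells) was led by Ccl3, Ccl4 and Nfkbia together with the mast cell protease genes Tpsb2, Cma1 and Mcpt4, and its mast cell markers summed to 143 CPM, against 3.26 CPM in subcluster 1. There 1.80% of 11596 genes were at least 2-fold higher and 0.733% lower, and all 7 members had ratios between 0.886 and 0.940.

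In total brain, subcluster 4 (116 cells, a median of 1793 UMIs, led by AY036118, Timp2 and Lars2) was compared with subcluster 5 (453 cells, 6473 UMIs, led by Xist, Jund and Spp1). Of 10907 genes 2.72% were at least 2-fold higher and 44.9% lower in subcluster 4. Fcer1g had 3920 CPM in subcluster 4 and 2287 CPM in subcluster 5, 1.72-fold (1.60 to 1.83), while Syk was 4.21-fold lower (1.91 to 11.6), with 23.4 CPM against 98.4 CPM on 6 and 284 UMIs. Fcgr2b was 2.58-fold lower, at 77.9 CPM against 201 CPM. Depth per cell differed between these subclusters by more than 3-fold, and its part in the result was not tested.

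In the vessel wall, endothelial-like cells of sorted brain (120 cells) had 659 CPM of Fcgrt, against 421 CPM in total brain (737 cells), 1.57-fold, where 9.16% of 12948 genes were called higher and 39.4% lower. Fcgr3 was 4.01-fold and Fcer1g 3.85-fold higher in the sorted endothelial-like cells, with 142 and 354 CPM there. The receptor UMIs of total brain endothelial-like cells were 64.4% Fcgr3, 18.4% Fcgr1, 15.3% Fcgr2b and 1.88% Fcgr4, beside 64.0%, 22.9%, 11.7% and 1.42% in microglia-like cells of that sample. Sorted endothelial-like cells had 32 UMIs of Fcgr3, 3 of Fcgr1, 1 of Fcgr2b and 4 of Fcgr4 among 40, beside 68.8%, 18.4%, 12.0% and 0.776% in sorted microglia-like cells. In choroid plexus epithelial-like cells, where 3.34% of 12652 genes were called higher and 24.6% lower in sorted brain, Fcgr3 had 27.1 CPM in sorted and 1.44 CPM in total brain, 18.8-fold, and Fcer1g 65.1 and 4.61 CPM, 14.1-fold (8.64 to 24.8). Fcgr1 had 97 UMIs in sorted and 1 in total brain, and Fcgr2b 72 and 1. The part of free RNA in these values was not tested.

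Around the receptors, lists of 75 other pathway genes were read in microglia-like cells, sorted over total brain, beside the median of −0.20 over all genes. Among other Fc receptors and Fc-receptor-like genes 7 of 12 had enough UMIs, 3 were called higher and 1 lower. Fcmr, Fcrla and Fcer2a, higher, had 11 to 13 UMIs in sorted brain and 0 in total brain, and are known from B cells. Fcrls, an Fc-receptor-like gene typical of mouse microglia, had 2531 CPM in sorted and 1880 CPM in total brain, 1.35-fold (1.31 to 1.39). Fcmr was highest in B cell-like cells, at 871 CPM. Trim21, a cytosolic antibody receptor, was lower, with 2.57 CPM in sorted and 10.6 CPM in total brain.

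Of 10 genes of other ITAM adaptors and their receptors 9 were found and 6 tested, and 1, the B cell gene Cd79a, was called higher, with 7.38 CPM in sorted and 0.939 CPM in total brain, and its level in B cell-like cells of sorted brain was 3845 CPM. Cd79b, its partner in B cells, had 48.6 CPM in sorted and 31.3 CPM in total brain microglia-like cells (1.55-fold). Tyrobp had 3649 CPM in sorted and 3278 CPM in total brain microglia-like cells (1.11-fold), and its partner Trem2 2846 and 2600 CPM (1.09-fold). Of 8 genes listed as receptors that pair with the gamma chain only Clec4a2 had enough UMIs, with 159 CPM in sorted and 113 CPM in total brain, 1.41-fold. Clec4a2 encodes a C-type lectin known as an inhibitory receptor with a motif of its own, unlike the list's name.

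Of 24 activating genes that act after the ITAM, 22 were tested, 0 were called higher and 7 lower in sorted brain (Plcg1, Gab2, Fyn, Grb2, Pik3cg, Sos1 and Malt1), with a list median of −0.08, where 4.06% of all genes were called higher and 24.4% lower. Under TMM scaling the lower calls were 5, without Pik3cg and Malt1, where 16.6% of all genes were lower. The Src kinase gene Lyn, which phosphorylates ITAMs, had 439 CPM in sorted and 457 CPM in total brain. Grb2, an adaptor, was 4.79-fold lower, at 35.4 CPM in sorted and 170 CPM in total brain, and Pik3cg, a phosphoinositide 3-kinase subunit, 2.23-fold lower, at 48.1 and 107 CPM. The adaptor genes Blnk and Lat2 had 204 and 235 CPM in sorted brain, against 166 and 152 CPM in total brain. Vav1 had 180 CPM in sorted and 146 CPM in total brain, Prkcd 258 and 242 CPM, Pik3r1 238 and 255 CPM, Rac2 208 and 138 CPM, and Bcl10 136 and 120 CPM. None of these passed 2-fold, and Rac2 was highest in NK cell-like cells, at 1912 CPM.

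Among the genes that brake the signal all 16 were tested, 0 were called higher and 5 lower (Cd72, Cd22, Lilrb4a, Cbl and Cblb), with a list median of −0.58, beside the same 4.06% and 24.4% of all genes. Scaling decided this split, since under TMM 4 were called higher (Ptpn6, Dok1, Dok3 and Siglece) and 2 lower (Cbl and Lilrb4a), beside 10.1% and 16.6% of all genes. Inpp5d, the phosphatase that FcγRIIb recruits, had 284 CPM in sorted and 450 CPM in total brain, a ratio of 0.630 (0.591 to 0.673), opposite in direction to Fcgr2b. Ptpn6 (SHP-1) had 285 CPM in sorted and 166 CPM in total brain, 1.72-fold. Sirpa, an inhibitory receptor for CD47, had 504 and 789 CPM, and Cd33 256 and 326 CPM. Cbl, a ubiquitin ligase that acts on Syk, was 2.83-fold lower, at 59.5 CPM in sorted and 168 CPM in total brain. Csk, Dok1 and Siglece had 97.9, 101 and 107 CPM in sorted brain, against 141, 57.3 and 58.8 CPM in total brain.

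The IgG heavy chain genes, whose products the receptors bind, were at the floor in microglia-like cells. Ighg1, Ighg2c and Ighg3 had 0 UMIs in both samples, and Ighg2b had 2 in sorted and 0 in total brain. B2m was the 1 gene of that list of 5 that was tested and was called higher, as given with Fcgrt.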

How the data were processed

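Droplet single-cell RNA sequencing was made of 2 pooled samples, sorted brain and total brain. The deposited tables hold raw UMI counts per gene and barcode, with cells already called; Cell Ranger 3.0.2 and the mm10 genome are named in the submitters' processing notes, and the file headers give 3.0.2 (sorted) and 3.1.0 (total). The annotation release was not given in the sources used here. Gene positions were read from GENCODE M21 (GRCm38) for 31011 of 31053 IDs. The tables held 0 columns of other samples. The members and lists were chosen with earlier results of these data known.

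Kept barcodes had 500 or more genes and no more than 10% mitochondrial UMIs (74.6% of sorted and 63.8% of total barcodes). Scrublet called 0.844% of sorted and 0.0747% of total cells doublets; at under 0.5% it had not worked in total brain, and no doublets were removed. Cells of both samples were clustered together (2000 variable genes without members and pathway genes, 30 principal components, 15 neighbours, Leiden resolution 2), and immune cells again at resolution 1 and microglia-like cells at 0.5. A cluster took a class name when 50% or more of its markers (3 or more) were raised 2-fold over the other clusters.

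Levels are a gene's UMIs per 1000000 UMIs of its class, with exact Poisson intervals; shares have Clopper-Pearson and ratios exact binomial intervals, all at 95%. Comparisons need 10 UMIs over both sides. A limit for 0 UMIs is 3 counts of the total. The kept cells held 31220601 UMIs in sorted and 33498788 in total brain. No test was made, since there is 1 sample per group. Named genes are the members, the 3 genes most correlated with each over classes, list genes at 100 CPM or more in microglia-like cells, at most 2 per list that are highest elsewhere, and genes called in a list; 1 such gene is not reported here. Motifs were counted by exact letters on both strands; the share was taken over 32851 windows. Protein sequences were not used here.

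Tested on simulated Poisson counts for 31053 genes with 100 genes changed 2-fold and 100 genes 4-fold, the sorted over total comparison had median log2 errors of −0.02 and −0.04 in microglia-like cells. Tools were Python 3.11.15, numpy 2.4.6, scipy 1.17.1, pandas 2.3.3, scanpy 1.11.5, igraph 0.11.9, matplotlib 3.10.9, and R 4.3.3 with edgeR 4.0.16 for TMM factors (0.878 sorted, 1.14 total). Alternatives were other cell filters, doublet removal, resolutions, scalings, pseudocounts, equal suffix weight and each suffix left out.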

Additional observations from a re-analysis of the deposited data

How the results depend on the processing

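Ratios between samples in microglia-like cells are log2, sorted over total brain. Under TMM scaling they were 0.81 for Fcer1g, 0.81 for Fcgr1, 1.17 for Fcgr2b, 1.23 for Fcgr3, 1.33 for Fcgrt and −0.90 for Syk, and 3 members were called in place of 1. Within cluster 7, an alternative chosen after seeing the data, they were −0.10 for Fcer1g, 1.55 for Fcgr1, 1.96 for Fcgr2b, 1.10 for Fcgr3 and 0.27 for Syk, which is reversed, and 4 members were called. Without the chemokine-led subcluster Fcer1g was at 0.51 and Fcgr3 at 0.92, with 2 members called, and without the subcluster led by AY036118 (also chosen after seeing the data) Fcer1g was at 0.51. Without mitochondrial and ribosomal protein genes Fcer1g was at 0.40, and with the stricter cell filter Fcgr1 was at 0.29. That filter left fewer than 50 endothelial-like cells in total brain, so that 0 members in place of 1 were highest outside microglia-like cells. Leaving out each suffix in turn gave 0.35 to 0.57 for Fcer1g, 0.34 to 0.51 for Fcgr1, 0.75 to 0.83 for Fcgr2b, 0.78 to 0.89 for Fcgr3, −0.21 to 0.05 for Fcgr4, 0.88 to 1.06 for Fcgrt and −1.45 to −1.10 for Syk. The count of members called ranged over 1 to 2 between samples (2 without suffix 4 of total brain, where Fcgrt passed), and over 1 to 3 for border macrophage-like over microglia-like cells (1 without suffix 1). In all, 273 recomputed values that answer a comparison stayed close to the value given, 26 moved and 1 was reversed. A ratio counted as reversed only where the log2 ratio given was at least 1 in size, so smaller ratios could change sign uncounted. Between samples Fcer1g kept its sign in 23 of 24 alternatives and Fcgr4 in 20 of 24. Of the other recomputed values 929 stayed close and 91 moved. The cause of these shifts was not tested. No paired analysis was possible because each group has 1 pooled sample.

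Depth limits Fcgr4, Fcgrt and Syk most, with 75, 234 and 294 UMIs in total brain microglia-like cells. The suffixes are not replicates of a known kind, and give no spread between mice.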

Other observations

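Basophil-like cells, whose receptor for IgE also uses the gamma chain, were too few to rank: the 10 cells of sorted brain had 2921 CPM of Fcer1g (2268 to 3703) and 344 CPM of Fcgr3 (148 to 677). They had 0 UMIs of Fcgr1, Fcgr4, Syk and Fcgrt, which allows up to 129 CPM for each. In total brain, 22 B cell-like cells had 554 CPM of Syk (413 to 726), above the 92.0 CPM of its microglia-like cells.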
